A study of Mus musculus with 18 samples.

Results

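The genes described here encode enzymes and membrane proteins of peroxisomal fatty acid oxidation in mouse liver. They were chosen by name, as the rows of the deposited count table whose symbol was Ehhadh, Acaa1a, Acaa1b, Hsd17b4, Pex11a, Crot, Decr2, Abcd2 or Abcd3, and all 9 were found among 20105 genes. The animals were female and of the HEP-INTACT line, where a tag on the nuclei of hepatocytes lets these be captured by immunoprecipitation (IP). The promoter or Cre driver that places the tag is not given in the sources used here, and all groups share the line. There were 6 mice, 3 with free access to food and 3 that had none for 16 h, counted from the onset of the active phase (zeitgeber time 12), and fed mice were killed at the same time of day. Each mouse gave 3 libraries of nuclear RNA, which were IP nuclei from fresh liver, the supernatant nuclei left after that IP, and IP nuclei from frozen liver, so that 6 groups of 3 libraries were compared.

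Peroxisomes shorten very long-chain, branched and dicarboxylic fatty acids that mitochondria handle poorly, and pass the shortened products on. Acyl-CoA enters through ABC transporters, is oxidized, hydrated and dehydrogenated by a bifunctional enzyme, and cleaved by a thiolase. In rodent liver many of these genes are known targets of the fatty acid receptor PPARalpha, which is active in fasting.

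Total counts per library ran from 13828945 to 54434263, the lowest being library B of frozen IP from fed mice. Hepatocyte markers (10 genes, among them Alb and Cps1) summed to 13762 to 26939 CPM (counts scaled to a common library size) in fresh IP and to 533 to 1420 CPM in supernatant. Kupffer cell and macrophage markers (8 genes) summed to 7.34 to 15.7 CPM in fresh IP, 25.4 to 92.2 CPM in frozen IP and 3243 to 6748 CPM in supernatant. The 92.2 CPM was that of frozen fed library B alone. The median was 29.7 CPM in frozen fed IP, and the maximum was 35.1 CPM in frozen fasted IP. The 6 cholangiocyte markers summed to 559 to 577 CPM in fed and to 196 to 247 CPM in fasted fresh IP. Nearly all of it was Pkhd1, while Krt19, Krt7 and Epcam were each below 0.4 CPM in fresh IP. Sox9 had 41 to 140 counts per library in fresh IP and 3 to 9 in supernatant, and Spp1 8 to 88 and 11 to 32. In supernatant the 6 summed to 13.0 to 15.4 CPM in fed and 6.53 to 20.4 CPM in fasted mice. Of 4 tested against supernatant, 3 were higher in fresh IP and 1 was lower. Hepatocyte transcripts were thus also measured, at a lower level, in the nuclei labelled as non-hepatocyte. Libraries are named by the letters A, B and C of the count table, which follow the same mouse through its preparations, as far as the data show.

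The promoters of 4 of the genes are shown because Ehhadh and Pex11a had the largest fasting responses of the 9 in IP, while Acaa1a and Acaa1b are near-identical neighbours whose levels differed. Each run covers 250 bases before to 50 bases after the RefSeq start, 300 bases in all, from RefSeq on GRCm38.p6 (mm10), written 5′ to 3′ on the gene's strand. Capitals mark a CCAAT motif in either orientation (CCAAT or ATTGG). The Ehhadh window is chr16:21787785-21788084 (minus strand), that of Acaa1a is chr9:119341044-119341343 (plus), that of Acaa1b is chr9:119157044-119157343 (minus) and that of Pex11a is chr7:79743082-79743381 (minus). The RefSeq start equals that of the counted span for the first 3 genes and lies 106 bases before it for Pex11a, whose window is therefore wholly outside the counted span.
Ehhadh: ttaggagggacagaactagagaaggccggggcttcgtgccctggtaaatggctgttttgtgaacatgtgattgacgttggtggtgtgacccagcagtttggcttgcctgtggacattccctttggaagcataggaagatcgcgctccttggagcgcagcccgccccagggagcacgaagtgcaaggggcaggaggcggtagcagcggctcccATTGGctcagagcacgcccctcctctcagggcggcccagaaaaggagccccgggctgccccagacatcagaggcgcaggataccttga
Acaa1a: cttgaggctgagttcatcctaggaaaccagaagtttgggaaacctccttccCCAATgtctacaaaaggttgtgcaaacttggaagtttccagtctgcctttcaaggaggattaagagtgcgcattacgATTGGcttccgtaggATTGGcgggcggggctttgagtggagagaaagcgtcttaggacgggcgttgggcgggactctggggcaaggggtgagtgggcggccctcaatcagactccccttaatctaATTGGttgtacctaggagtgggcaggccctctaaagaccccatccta
Acaa1b: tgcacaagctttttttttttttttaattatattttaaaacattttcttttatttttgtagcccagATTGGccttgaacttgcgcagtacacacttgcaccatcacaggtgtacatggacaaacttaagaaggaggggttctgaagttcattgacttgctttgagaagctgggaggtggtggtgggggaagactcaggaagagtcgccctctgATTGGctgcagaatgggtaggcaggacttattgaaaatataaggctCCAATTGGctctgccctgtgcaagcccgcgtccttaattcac
Pex11a: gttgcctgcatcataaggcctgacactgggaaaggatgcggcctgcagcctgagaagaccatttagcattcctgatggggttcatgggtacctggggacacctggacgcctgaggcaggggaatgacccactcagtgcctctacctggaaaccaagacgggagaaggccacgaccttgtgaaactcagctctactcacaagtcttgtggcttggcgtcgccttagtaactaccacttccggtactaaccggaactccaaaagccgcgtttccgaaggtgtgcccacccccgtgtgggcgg

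A promoter was looked up for each gene, and 7 of the 9 were used. Abcd2 had no entry and that of Hsd17b4 was not used here. For Abcd3 the windows starting at 121815253 and 121814860 were both scanned and counted as a single gene, with 0 matches to any motif. CCAAT (either strand) was found for 4 of the 7 genes, Acaa1a, Acaa1b, Crot and Ehhadh, against 37.4% of 32851 mouse promoters of equal length. Acaa1a and Acaa1b held 4 matches each, and in Acaa1b the CCAAT and ATTGG matches nearest the start overlap. The direct repeat AGGTCANAGGTCA, the consensus of PPARalpha with its partner RXR, was found for 0 of 7 genes and in 0.0396% of all promoters. The looser form AGGNCANAGGNCA was also in 0 of 7 (0.381% of all). AGGTCA alone was in 0 of 7 (16.3% of all), and TATAAA was in 0 of 7 (13.6% of all). These counts say only which letters stand in these windows.

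Levels are given first within groups. CPM were scaled by TMM over all 18 libraries, and between genes they are compared per kilobase of the counted span, introns included. In fresh IP of fed mice Acaa1b, a thiolase, had the highest level at 46.1 ± 8.90 CPM per kb (SD, n = 3), followed by Crot, carnitine octanoyltransferase, at 14.0 ± 3.04. Acaa1a (10.3 ± 0.29) and Abcd3 (10.02 ± 2.43) overlapped each other, and Decr2 stood at 6.77 ± 1.66. Hsd17b4 (3.71 ± 0.54), Pex11a (3.53 ± 0.52), Ehhadh (3.46 ± 1.62) and Abcd2 (2.38 ± 0.46) were lowest, and each overlapped the next. In fasted mice the order in fresh IP changed: Acaa1b was still highest at 50.0 ± 19.3 CPM per kb, Ehhadh followed at 19.7 ± 10.7, overlapping Crot at 18.8 ± 3.33, and Pex11a stood at 13.5 ± 4.75. Abcd2 remained lowest at 1.70 ± 0.53.

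**Figure D1:**
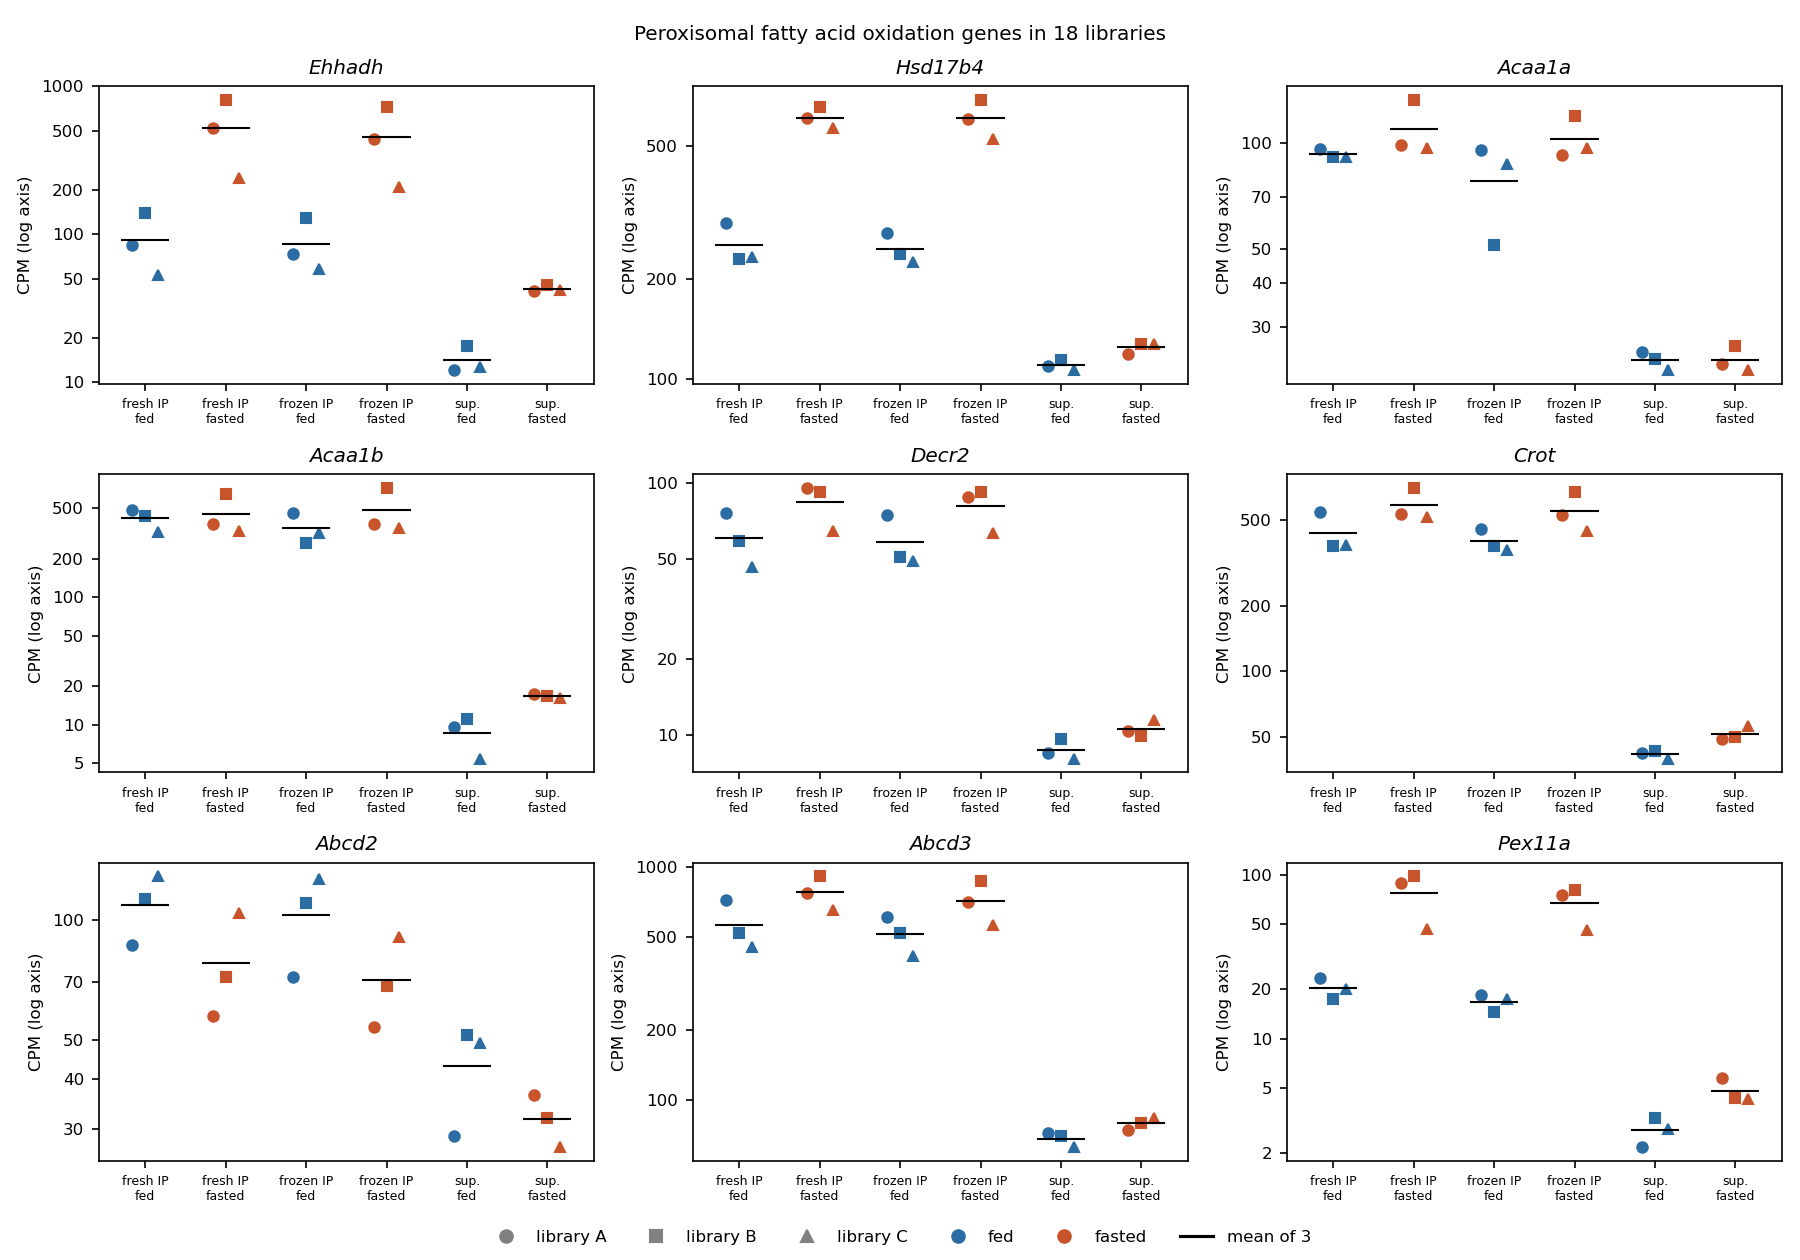
CPM of the 9 genes in each of the 18 libraries (log axis, 1 panel per gene), by group on the horizontal axis. Symbols give the library letter, colours the feeding state and black lines the mean of 3 libraries. Ehhadh, Hsd17b4 and Pex11a separate fed from fasted in both IP preparations, and all genes are lower in the supernatant (sup.) groups.

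Fasting in fresh IP asks how hepatocyte nuclear transcripts of the pathway responded to 16 h without food. Of the 9 genes 3 rose and 0 fell by edgeR's quasi-likelihood test with a Benjamini-Hochberg adjusted p under 0.05, against 12.4% of all 12548 genes tested that were higher and 12.6% that were lower. The 3 were Ehhadh, Hsd17b4 and Pex11a. They are the 2 bifunctional enzymes and the division factor. The median log2 fold change (fasted minus fed) of the 9 was 0.49, beside 0.01 over all genes tested and 0.41 over the 10 hepatocyte markers, of which 9 had positive estimates, 2 rose and 1 fell. Hepatocyte markers summed to 13762 to 19638 CPM in fed and 19374 to 26939 CPM in fasted fresh IP. Endothelial markers had a median of -0.64 (0 of 8 positive, 1 fell; sums of 64.1 to 123 CPM in fed and 31.7 to 73.5 CPM in fasted), and stellate cell and fibroblast markers a median of -0.78 (2 of 7 tested positive, 1 fell). The part of these marker shifts in the members' values was not tested. In bulk libraries, fewer nuclei of a type and less RNA per nucleus cannot be told apart.

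Ehhadh encodes the L-bifunctional protein, which hydrates and dehydrogenates straight-chain acyl-CoA (mm10 chr16:21761285-21787834, minus strand). In fresh IP of fed mice it stood at 84.2, 138 and 53.3 CPM in libraries A, B and C, and in fasted mice at 522, 810 and 241 CPM. The groups did not overlap, but the fasted libraries themselves spread more than 3-fold, with B highest and C lowest, and the coefficient of variation was 54.3%. Ehhadh rose 5.81-fold, a log2 change of 2.54 ± 0.64 (SE of the difference between means of log2 CPM), with an edgeR adjusted p of 0.00995. Leaving out 1 library at a time, the log2 change ran from 2.07 to 2.95.

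Hsd17b4 encodes the D-bifunctional protein, which serves the same steps and also branched-chain substrates and bile acid intermediates (chr18:50128201-50196270, plus strand). It stood at 295, 230 and 233 CPM in fed and at 606, 654 and 566 CPM in fasted fresh IP. The groups were far apart and the fasted libraries lay close together, with a coefficient of variation of 7.28%. Hsd17b4 rose 2.44-fold (log2 change 1.29 ± 0.13, edgeR adjusted p = 0.00151).

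Pex11a encodes a membrane protein that elongates peroxisomes before they divide (chr7:79737264-79743025, minus strand). Its levels were 23.5, 17.5 and 20.04 CPM in fed and 88.8, 98.1 and 46.7 CPM in fasted fresh IP. All fasted libraries were higher than all fed ones, with C again lowest among the fasted. Pex11a rose 3.88-fold (log2 change 1.96 ± 0.36, edgeR adjusted p = 0.00323).

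The other 6 genes did not pass the test in fresh IP. The thiolases, which cleave off acetyl-CoA in the last step of each round, were Acaa1a (chr9:119341294-119350295, plus strand), with a log2 change of 0.26 ± 0.15, and Acaa1b (chr9:119148043-119157093, minus strand), with 0.14 ± 0.34. The Acaa1a libraries were 95.9, 91.4 and 91.3 CPM in fed and 98.8, 133 and 97.0 CPM in fasted mice, which did not overlap but differed by little outside library B. Those of Acaa1b overlapped widely, at 487, 435 and 329 CPM in fed and 374, 652 and 330 CPM in fasted mice. In all, 4 of 9 genes had fasted libraries that were all above the fed ones, against 22.5% of genes tested.

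Crot moves medium-chain acyl groups onto carnitine for export to mitochondria, Decr2 is a dienoyl-CoA reductase that prepares unsaturated acyl-CoA, and Abcd3 (PMP70) imports long-chain, branched and bile acid acyl-CoA. Crot (chr5:8966048-8997146) changed by 0.44 ± 0.22, Decr2 (chr17:26081211-26090164) by 0.50 ± 0.27 and Abcd3 (chr3:121758910-121815215) by 0.49 ± 0.23 on the log2 scale, all 3 on the minus strand. Their unadjusted p were 0.0495, 0.0442 and 0.0427, and their adjusted p from edgeR were 0.126, 0.117 and 0.114. The fed and fasted libraries of each overlapped, for example those of Abcd3 at 717, 521 and 454 CPM in fed and 773, 909 and 652 CPM in fasted mice. These 3 genes had like sizes and did not meet the threshold.

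Abcd2, an importer of very long-chain acyl-CoA, was the 1 gene of the 9 with a negative estimate (chr15:91145871-91191807, minus strand). It stood at 86.6, 113 and 129 CPM in fed and at 57.3, 72.0 and 104 CPM in fasted fresh IP, which overlapped. The log2 change was -0.47 ± 0.31 (edgeR adjusted p = 0.179), and without fasted library C it was -0.74 with an adjusted p of 0.0450.

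**Figure D2:**
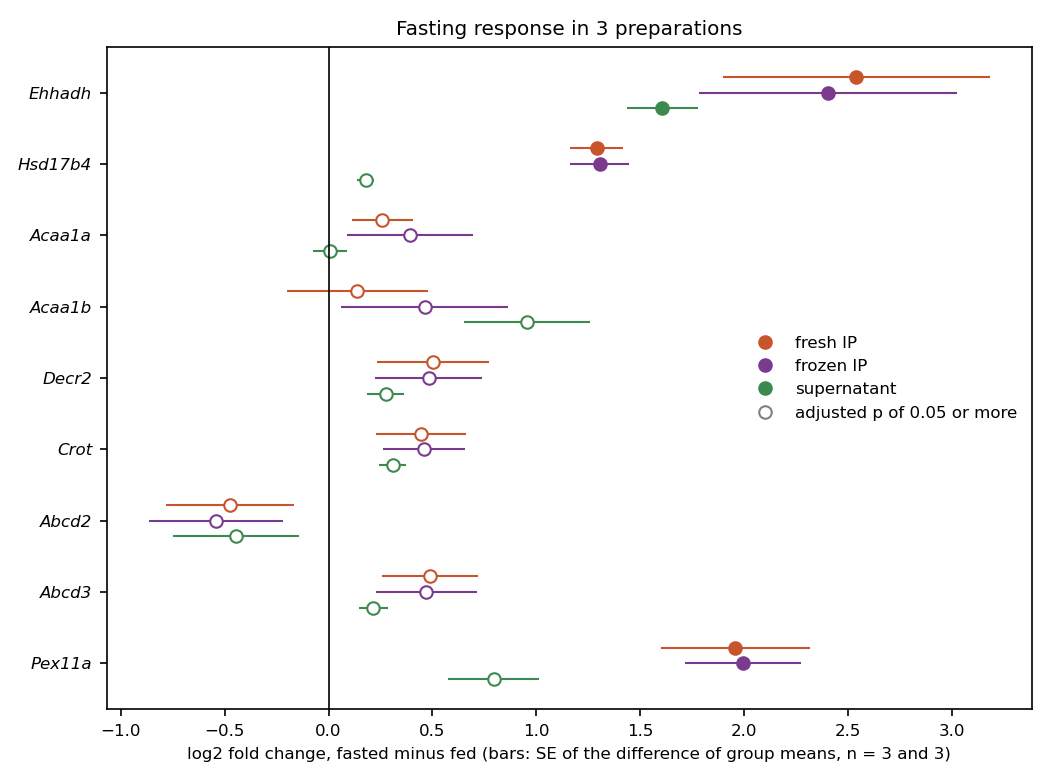
Log2 fold change of fasted minus fed for the 9 genes in fresh IP, frozen IP and supernatant, with bars for the SE of that difference (n = 3 and 3). Filled points passed edgeR's adjusted p under 0.05. Ehhadh, Hsd17b4 and Pex11a are filled in both IP preparations, and Ehhadh alone is filled in supernatant.

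Other genes of the organelle changed in both directions in fresh IP. Among 24 other tested genes of peroxisomal lipid oxidation 11 rose and 4 fell, against 12.4% higher and 12.6% lower over all genes tested. Crat, which makes acetylcarnitine, rose by 2.63 ± 0.33 on the log2 scale, Ech1, a dienoyl-CoA isomerase, by 1.88 ± 0.19 and Scp2, a sterol carrier with a thiolase form, by 1.88 ± 0.25. The isomerase Eci3 (-4.83 ± 0.48), the CoA hydrolase Nudt7 (-2.43 ± 0.33) and the trans-enoyl-CoA reductase Pecr (-1.08 ± 0.21) fell. Eci3 had only 6, 19 and 3 counts in fasted libraries A, B and C, so the size of its change is uncertain.

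Of 20 genes of peroxisome assembly and division 3 rose and 2 fell, shares near those over all genes tested (12.4% higher and 12.6% lower). The membrane protein gene Pxmp4 rose by 1.06 ± 0.16, the import docking factor Pex14 by 0.38 ± 0.04 and the fission adaptor Mff by 0.35 ± 0.05 (SE, log2 scale). Pxmp2 (-0.61 ± 0.19) and the import receptor Pex7 (-0.50 ± 0.14) fell. Among 17 other peroxisomal enzymes 1 rose, the epoxide hydrolase Ephx2 (1.66 ± 0.29), and 4 fell, among them the hydroxyacid oxidase Hao2 (-1.98 ± 0.14), the cytosolic and peroxisomal isocitrate dehydrogenase Idh1 (-0.97 ± 0.15) and catalase, Cat (-0.75 ± 0.22).

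Of 15 genes for PPARalpha and its partners 3 rose and 0 fell in fresh IP, against 12.4% higher and 12.6% lower over all genes tested. In frozen IP 1 of the 15 rose and 0 fell, against 11.0% higher and 11.6% lower over all genes tested. In supernatant 3 rose and 1 fell, against 3.38% higher and 2.84% lower. Among those that rose in fresh IP, the coactivator Ppargc1a changed by 1.95 ± 0.27 and the hepatocyte factor Hnf4a by 0.54 ± 0.17 (SE, log2 scale). Hnf4a is also among the hepatocyte markers. Ppara itself, at 1410, 892 and 1116 CPM in fed and 1607, 1365 and 1205 CPM in fasted mice, overlapped between groups (0.31 ± 0.23, edgeR adjusted p = 0.288).

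Frozen IP asks whether the response is seen in nuclei from stored tissue. The same 3 genes, Ehhadh, Hsd17b4 and Pex11a, rose and 0 of 9 fell, against 11.0% of 12926 genes tested that were higher and 11.6% lower. Ehhadh stood at 73.2, 127 and 58.1 CPM in libraries A, B and C of fed and at 439, 717 and 208 CPM in fasted mice (log2 change 2.402 ± 0.62, edgeR adjusted p = 0.0102). Hsd17b4 rose by 1.30 ± 0.14 (adjusted p = 0.00176) and Pex11a by 1.99 ± 0.28 (adjusted p = 0.00151). These 3 were also the members whose frozen fed and fasted libraries did not overlap, against 23.7% of genes tested with all fasted libraries higher. The remaining log2 changes were 0.39 ± 0.30 for Acaa1a, 0.46 ± 0.40 for Acaa1b, 0.46 ± 0.20 for Crot, 0.48 ± 0.26 for Decr2, 0.47 ± 0.24 for Abcd3 and -0.54 ± 0.32 for Abcd2. The median of the 9 was 0.47, beside 0.01 over all genes tested. Marker lists moved with fasting here too: the median was 0.42 for hepatocyte (8 of 10 positive, 2 rose), -0.80 for endothelial (3 of 8 fell) and -0.89 for stellate cell and fibroblast markers (4 of 8 fell), and their part was not tested.

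Acaa1a had 1 frozen fed library apart from the rest, B at 51.3 CPM against 95.6 and 87.4 CPM in A and C, and that library had the lowest total count of all. In frozen IP Decr2 passed without fed library A (0.70, edgeR adjusted p = 0.0484). In the authors' table of their own comparisons, 3 of the 9 genes were higher and 0 lower in both fresh and frozen IP. There 32.4% and 33.4% of 15052 genes with an adjusted p passed 0.05 in either direction. The share for each direction alone was not counted. The authors' deposited table gives Ehhadh a log2 fold change of 2.47 in fresh and 2.32 in frozen IP.

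The size of the fasting response was then compared between the preparations. The difference (frozen minus fresh) was called for 0 of 9 genes and 0% of 13162 tested by edgeR, with 43 genes at an unadjusted p under 0.05 and 0 called by DESeq2. It was -0.14 for Ehhadh, 0.01 for Hsd17b4 and 0.03 for Pex11a on the log2 scale, with SEs within mice of 0.09, 0.07 and 0.09. Acaa1b had the largest estimate at 0.32 ± 0.22 (SE within mice). Fresh and frozen libraries come from the same mice, so the frozen values are a second preparation and not a second set of animals. The edgeR and DESeq2 fits above had no mouse block. They took the libraries of a mouse as independent, although these deviated together from group means (r of 0.555 to 0.902). Their p tend to be too large for a difference within mice, so 0 calls does not show equal responses. With the mouse as a block, 0 of 9 genes were called too.

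Level differences between frozen and fresh IP were small for these genes. None of the 9 passed the test without a block (4.72% of 13162 genes were higher and 0.441% lower in frozen). The largest estimate was that of Pex11a at -0.21 ± 0.23 (edgeR adjusted p = 0.863). This SE takes the libraries as independent and not as pairs within mice. When the mouse entered as a block, edgeR called Pex11a lower in frozen IP (-0.20, adjusted p = 0.0156), and 2168 genes passed in place of 679. Its libraries were 18.6, 14.6 and 17.4 CPM in frozen fed and 75.4, 81.0 and 46.0 CPM in frozen fasted mice, each below the fresh library of the same letter. This was not particular to Pex11a: frozen was below fresh in all 6 library pairs for 4 of the 9 genes (also Acaa1a, Abcd2 and Abcd3), and 0 of 9 had a positive estimate. Nor was it particular to the 9. Estimates were positive for 2 of 24 other genes of peroxisomal lipid oxidation, 2 of 20 of assembly and division and 3 of 10 hepatocyte markers. The median was -0.09 for the 9, -0.10 for these markers and -0.02 over all genes tested. The share of all genes below fresh in all 6 pairs was not counted. Beside this, 7 of 8 endothelial and 6 of 8 Kupffer cell and macrophage markers were higher in frozen IP, and their part in the result was not tested.

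In the supernatant 1 of the 9 genes rose and 0 fell with fasting, against 3.38% of 13921 genes tested that were higher and 2.84% lower. Ehhadh stood at 12.1, 17.5 and 12.7 CPM in fed and at 41.3, 45.3 and 42.1 CPM in fasted supernatant. The fasted libraries were tightly grouped, with a coefficient of variation of 4.93%, unlike the same mice's IP. Ehhadh rose 3.04-fold (log2 change 1.61 ± 0.17, edgeR adjusted p = 0.00317). In 1 fit over all 18 libraries its adjusted p was 0.0714.

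Acaa1b stood at 9.50, 11.04 and 5.41 CPM in fed and at 17.4, 16.9 and 16.1 CPM in fasted supernatant. All fasted libraries were higher, and the log2 change of 0.95 ± 0.30 was just outside the threshold (edgeR adjusted p = 0.0531). It passed without fed library C (0.72, adjusted p = 0.0416) and by DESeq2 (adjusted p = 0.00202). Pex11a differed by 0.79 ± 0.22 and Crot by 0.31 ± 0.06, with edgeR adjusted p of 0.0637 and 0.0685 and DESeq2 adjusted p of 0.0105 and 0.0273. The other estimates were 0.18 ± 0.04 for Hsd17b4, 0.28 ± 0.09 for Decr2, 0.22 ± 0.07 for Abcd3, 0.01 ± 0.08 for Acaa1a and -0.45 ± 0.30 for Abcd2, which reached -0.67 without fed library A (edgeR adjusted p = 0.04998).

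Fasted libraries were all above fed ones for 7 of the 9 genes in supernatant, against 15.1% of genes tested. The median log2 change of the 9 was 0.28, beside 0.00 over all genes. Hepatocyte markers moved the same way there: 9 of 9 tested had positive estimates, 2 passed, their median was 0.68, and their summed level ran from 533 to 937 CPM in fed and from 878 to 1420 CPM in fasted supernatant. The part of this in the members' supernatant values was not tested. Ech1, Nudt7, Ephx2, Hao2, Ppargc1a and Hnf4a, named above, also passed edgeR's test in supernatant.

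The comparison of fresh IP with supernatant asks how far each transcript is enriched in captured nuclei. All 9 genes were higher in IP, against 42.0% of 14322 genes tested that were higher and 43.0% lower, which were 6016 and 6165 genes. Scaling by library totals alone gave 4515 higher and 7559 lower and moved the median of all genes from -0.00 to -0.34, and all 9 genes stayed higher under it and under the other 17 alternatives run. The median log2 difference of the 9 was 3.13, beside 4.54 for the 10 hepatocyte markers.

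Acaa1b was the most enriched, at 5.14 ± 0.24 (SE, log2 scale, 35.4-fold). Pex11a (3.43 ± 0.22), Crot (3.42 ± 0.12), Abcd3 (3.14 ± 0.13), Ehhadh (3.13 ± 0.34) and Decr2 (2.87 ± 0.15) formed a middle range. Acaa1a (2.03 ± 0.10), Hsd17b4 (1.71 ± 0.07) and Abcd2 (1.28 ± 0.21) were the least enriched, and Abcd2 had the largest edgeR adjusted p of the 9, 2.51e-05.

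Expressed the other way, the supernatant level of fed mice was 2.07% of the fresh IP level for Acaa1b, 9.51% for Crot, 12.1% for Abcd3, 13.6% for Pex11a, 14.3% for Decr2 and 15.3% for Ehhadh. It was 25.9% for Acaa1a, 39.5% for Abcd2 and 43.6% for Hsd17b4. Hepatocyte markers measured in the same way had a median of 3.54% and a range of 2.30 to 13.7%, so 5 of the 9 genes lay above the whole range of these markers in fed mice and Acaa1b lay below it. In fasted mice the markers ran from 2.43 to 27.2% (median 5.08%), and Abcd2 (40.7%) lay above that range. The upper end of the range was Apoa1 alone, and Alb was the next highest marker. Acaa1a (22.1%), Hsd17b4 (20.5%) and Decr2 (12.5%) lay below Apoa1 but above every other marker, Decr2 only just. Abcd3, Crot, Ehhadh (8.19%), Pex11a and Acaa1b lay below Alb.

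**Figure D3:**
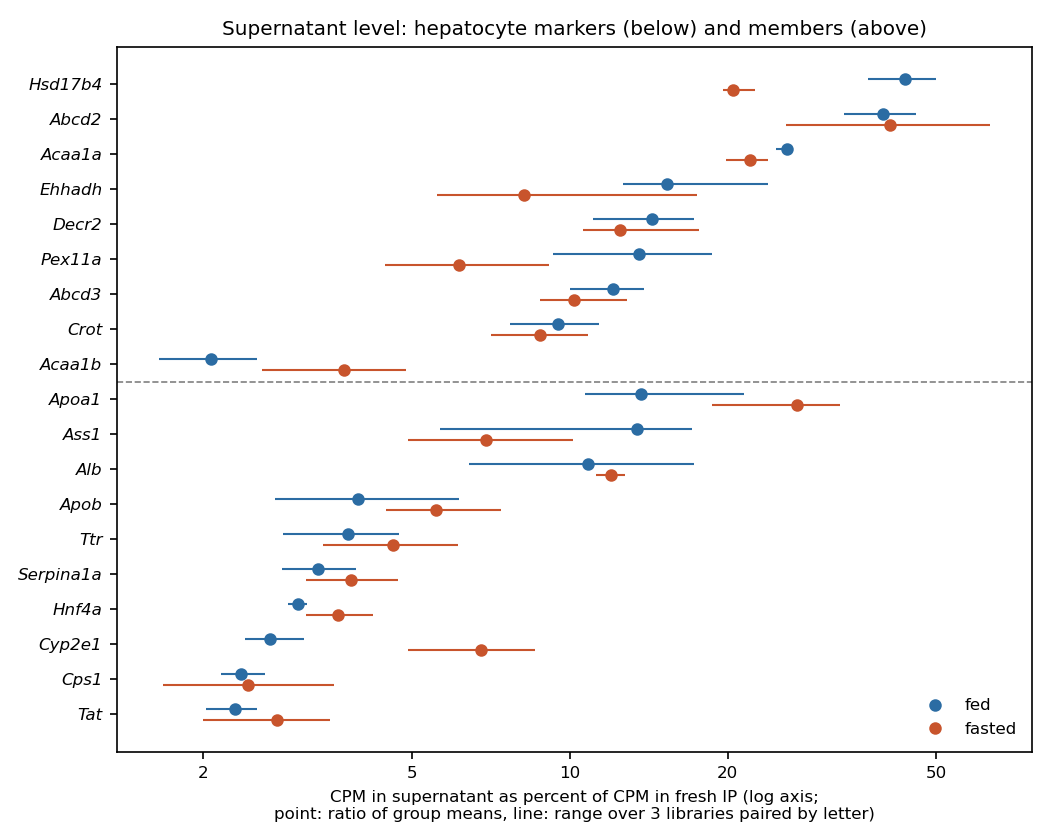
CPM in supernatant as a percent of CPM in fresh IP (log axis) for the 9 genes, above the dashed line, and for 10 hepatocyte markers, below it, in fed and fasted mice. Points are ratios of group means and lines span the 3 libraries paired by letter. Hsd17b4 moves from 43.6% in fed to 20.5% in fasted mice, and Acaa1b is lowest of the 9 in both states.

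The fasting response itself differed between IP and supernatant for 1 of the 9 genes by the interaction test. The difference (log2 change in IP minus that in supernatant) was called positive for 3.71% of 14322 genes and negative for 5.83%. A negative difference can also be a larger fall in IP. The median difference was 0.20 for the 9 genes (7 positive), beside -0.08 over all genes tested. It was -0.30 for the 10 hepatocyte markers, of which 1 was positive. The part of this marker shift in the members' values was not tested. Hsd17b4 stood at 109, 114 and 107 CPM in fed and 119, 128 and 127 CPM in fasted supernatant, against the rise from 253 ± 36.9 to 609 ± 44.3 CPM in IP (SD, n = 3). Its response was larger in IP by 1.06 ± 0.15 on the log2 scale (edgeR adjusted p = 0.00303). That of Pex11a differed by 1.11 ± 0.44 (adjusted p = 0.0918), and it passed by DESeq2 (adjusted p = 0.0357) and without fasted fresh IP library C (1.39, edgeR adjusted p = 0.00945). Ehhadh differed by 0.90 ± 0.68 (adjusted p = 0.347). Acaa1b had the opposite sign, -0.86 ± 0.47 (adjusted p = 0.202), and reached -1.25 without fasted fresh IP library B (edgeR adjusted p = 0.0338). The remaining 5 lay between -0.09 and 0.22.

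The balance between partner genes was measured as ratios of CPM per kb within each library, 15 ratios in all, tested with a two-sided exact permutation test whose smallest p with 3 against 3 is 0.1. The L- to D-bifunctional ratio, Ehhadh to Hsd17b4, was 0.95 ± 0.52 in fed and 2.16 ± 1.04 in fasted fresh IP (SD, n = 3, exact p = 0.2, 0.231 after Benjamini-Hochberg adjustment). Library B of the fed group, at 1.54, lay above fasted library C, at 1.09, so the groups overlapped. In supernatant the same ratio was 0.33 ± 0.06 in fed and 0.88 ± 0.03 in fasted mice (exact p = 0.1, adjusted 0.188), with no overlap.

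Abcd3 to Abcd2 was 4.47 ± 2.03 in fed and 8.80 ± 3.23 in fasted fresh IP, which overlapped (exact p = 0.2, adjusted 0.231). None of the 15 ratios could reach an exact p below 0.05 at this number of libraries.

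Acaa1a and Acaa1b are 184.2 kb apart on chromosome 9, on opposite strands. Their longest annotated protein-coding transcripts were 96.6% identical over 1428 aligned bases, and 34.0% of 1713 windows of 50 bases of the Acaa1a transcript occurred exactly in that of Acaa1b. Reads are 50 bases long, so counts from the exons of this pair could be divided between the genes in an unknown way, and their separate values are uncertain. Their promoters, shown above, shared 0 of 289 words of 12 bases. The ratio of Acaa1b to Acaa1a was 4.46 ± 0.77 in fed and 4.01 ± 0.78 in fasted fresh IP (exact p = 0.6, adjusted 0.643) and 0.35 ± 0.11 in fed and 0.69 ± 0.05 in fasted supernatant (exact p = 0.1, adjusted 0.188). Acaa1b was thus the higher of the pair in IP and the lower in supernatant in all 12 fresh libraries.

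**Figure D4:**
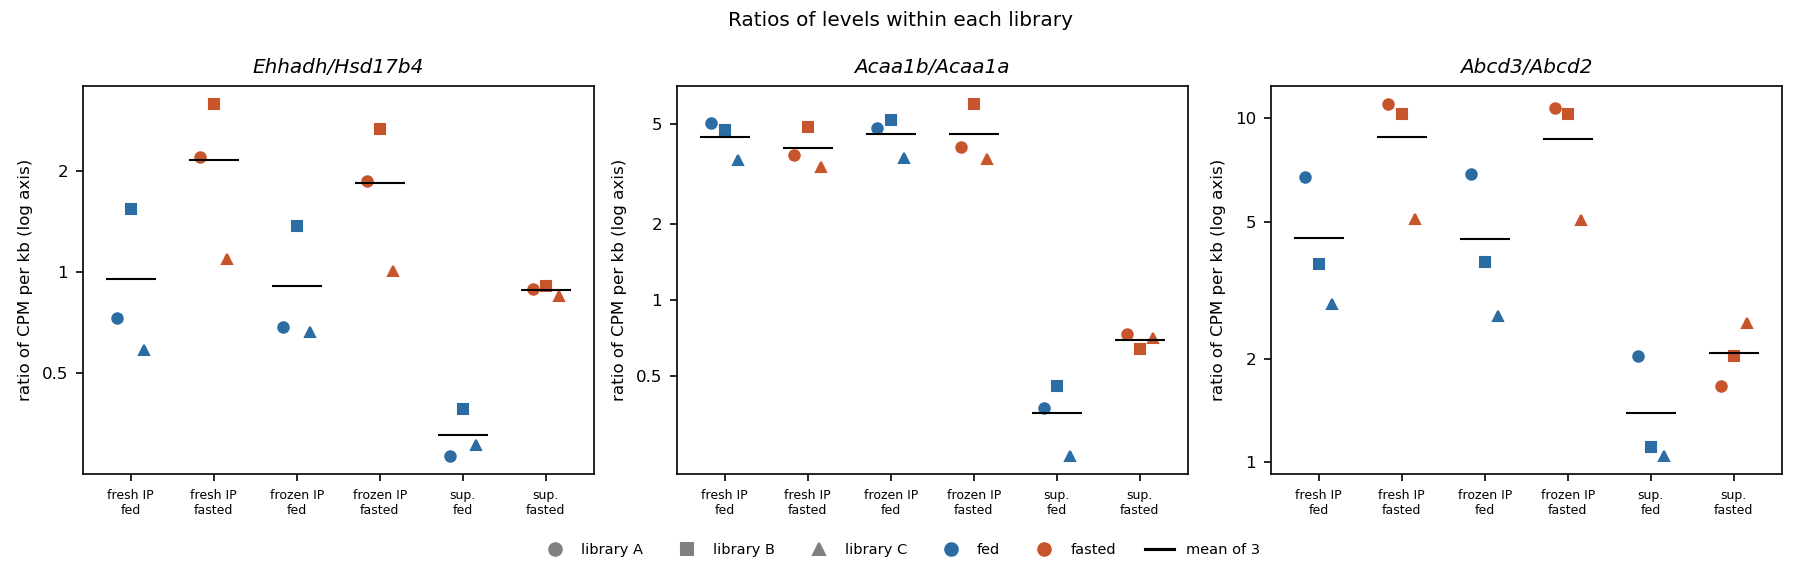
Ratios of CPM per kb between pairs of genes within each library (log axis), by group. Symbols give the library letter and black lines the mean of 3. The ratio of Acaa1b to Acaa1a is above 3 in every IP library and below 0.8 in every supernatant (sup.) library, and Ehhadh to Hsd17b4 separates fed from fasted in supernatant.

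Variation between mice often followed a common order. Among fasted mice, library B was highest for 7 of the 9 genes in fresh IP and C was lowest for 8, and among fed mice A was highest for 7. The highest library was the same letter in fresh and frozen IP for 8 of 9 genes in fasted and 9 of 9 in fed mice. The whole order was the same for 7 and 5 genes. Abcd2 ran the other way, with C highest in both feeding states. Libraries of the same letter deviated together over 8478 genes (r of 0.555 to 0.902), which is how letters were matched to mice. Agreement between fresh and frozen IP is thus not particular to these genes. The share of all genes with such orders was not counted. Over the 12 IP libraries, which are 6 mice measured in fresh and frozen tissue and include the fed to fasted difference, log2 CPM of Hsd17b4 and Pex11a correlated at 0.97, those of Ehhadh with Pex11a at 0.92 and with Hsd17b4 at 0.91 (Pearson). Abcd2 correlated negatively with the other 8 genes, from -0.44 with Acaa1a to -0.93 with Decr2.

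Among 12463 genes compared over the same 12 libraries, the 5 closest to Ehhadh by Pearson correlation of log2 CPM were Phospho1 (0.98), Kdsr (0.98), Serinc2 (0.98), Prune (0.98) and Abhd1 (0.97). Their log2 changes in fresh IP were 3.01, 0.75, 1.91, 0.78 and 0.62, so the likeness is one of order between libraries and not of size.

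No member overlapped another gene in the deposited table's own spans. In the GENCODE annotation of the same build Acaa1a lies inside the span of Slc22a14 on the opposite strand, and 23.2% of Pex11a is overlapped by the antisense gene Gm44706. Whether the authors' counting used strand is not given, so reads of these partners cannot be told apart from those of Acaa1a and Pex11a.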

How the data were processed

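Nuclear RNA of 18 libraries was sequenced as 50-base paired reads, from 50 to 100 ng of RNA, by a stranded kit without selection of poly-A RNA, per the labels' protocols. The authors deposited raw counts per gene for 20105 genes, each counted over a span that equals start to end, introns included, in all 20105 rows. Per the submitters' processing notes STAR 2.4.2a, DESeq2 1.24.0 and mm10 were used, with no role given; the counting tool and strand setting are not given in the sources used here. The authors also deposited log2 fold changes and adjusted p-values of their own, used only where named, and normalized counts (a linear signal), not used here. A further 6 columns of the deposited table matched no sample and were not used.

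The 7 comparisons were tested on the counts with edgeR 4.0.16 (TMM, filterByExpr by group, quasi-likelihood test, Benjamini-Hochberg over all genes tested, adjusted p under 0.05) in R 4.3.3, without a block; all 9 members passed the filter in each. The code was tested on simulated data. SEs come from log2 CPM (prior count 2) and take libraries as independent, except where called SE within mice. Precision follows from n = 3 and total counts of 13828945 to 54434263. Replicates are separate mice, per the labels. Chi-square per gene between libraries of a group was 16.7 or more, so none was counted as a duplicate. Column letters stand in no label; libraries of the same letter deviated together from group means (r of 0.555 to 0.902 between fresh and frozen IP, 0.152 to 0.437 between IP and supernatant, 8478 genes), while different letters gave -0.586 to 0.010, so the letter served as the mouse block of an alternative. Other alternatives were DESeq2 1.42.0, other scalings, no low-count filter, 1 fit over all libraries and leaving out each library.

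The members and gene lists were chosen with earlier results of these data known. All 9 members are named. Of the 4 peroxisome lists, up to 3 genes in each direction with the largest log2 change past the threshold in fresh IP are named, plus Ppara and the genes most like Ehhadh. Some genes and ratios covered by the rule are not reported here. Ppara was named after its values were seen.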

Additional observations from a re-analysis of the deposited data

Results flagged for a closer look

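The fasting response differed between fresh IP and supernatant by the edgeR interaction test for 1 member and 5 of the named list genes. Over all 14322 genes tested, 3.71% had a positive and 5.83% a negative called difference. These 5 list genes were named by their log2 change in fresh IP, which is itself part of the difference. Their calls here are thus not independent of that choice. For Hsd17b4, the D-bifunctional protein, the log2 response was larger in IP by 1.06 ± 0.15 (SE, adjusted p = 0.00303).

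The other 5 are peroxisomal genes outside the 9. Crat had a response larger in IP by 2.32 ± 0.36, Scp2 by 1.48 ± 0.27 and Ech1 by 1.25 ± 0.24 on the log2 scale. Nudt7 (-1.77 ± 0.37) and Idh1 (-0.81 ± 0.22) fell in IP, and their difference is negative. Their edgeR adjusted p ran from 0.00164 for Crat to 0.0327 for Idh1. Groups of 3 libraries were not tested for outlying libraries.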

How the results depend on the processing

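Ehhadh, Hsd17b4 and Pex11a were called in both IP fasting comparisons under all 11 alternatives run for each, and all 9 genes were called in IP against supernatant under all 18. No called value changed sign. The number of members higher in fasted supernatant was 2 without a low-count filter, 0 in 1 fit over all 18 libraries and 4 by DESeq2, which called 1871 genes in all. The interaction of fasting with fraction gave 2 members and 2307 genes by DESeq2. With the mouse as replicate block, frozen against fresh IP gave 1 member lower and 2168 genes, and the block changed no other member's call.

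Leaving out 1 library at a time gave 1429 to 2643 genes for fasting in fresh IP with 0 to 1 members lower, and 1168 to 2271 in frozen IP with 3 to 4 members higher. In supernatant it gave 197 to 624 genes with 1 to 2 members higher and 0 to 1 lower, in frozen against fresh IP 409 to 711 genes, and in the interaction 771 to 1485 genes with 1 to 2 members higher and 0 to 1 lower. Counts moved by over 1.5 times in fresh IP without fed library A (2050), fed B (1943) or fasted A (1429), in frozen IP without fasted A (1168), B (1885) or C (1810), and in supernatant without fed B (316), fed C (327) or fasted A (197), B (541) or C (473). The same held in frozen against fresh IP without fresh fed A (409) or frozen fasted A (442), and in the interaction without fresh IP fasted A (793) or supernatant fed C (816), fasted A (771) or fasted C (852). Such fits have fewer samples. The cause of the other shifts was not tested. In supernatant Pex11a had as few as 89 counts per library.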
